A study of Mus musculus with 18 samples.

Results

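The genes described here encode proteins that write, erase or read the modifications of lysine 27 of histone H3 (H3K27). They are 9 genes, Ep300, Crebbp, Kdm6b, Ezh1, Ezh2, Eed, Suz12, Brd2 and Brd3, of 21938 protein-coding genes in the GENCODE M21 annotation of the mouse genome (mm10). They are grouped by what their products do. For each gene the gene body was joined with 50 kb to each side of its most upstream annotated start site, and the accessible regions in this window were described. The windows held 71 of 59617 extended regions, 109 of 82391 reference peaks and 115 of 84660 summits. No reference peak was shared between windows, and the windows covered 1026.69 kb in all.

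Accessible chromatin was mapped by ATAC-seq, in which a transposase loads adapters into DNA that is not covered by nucleosomes, in macrophages grown in culture from bone marrow precursors (BMDMs). The mice were wild type C57/BL6 males of 6 to 8 weeks. There were 18 libraries in 9 groups of 2, and the BMDMs of every group had been given the vehicle DMSO for 1 h. A single group stayed untreated. The other groups received LPS (lipopolysaccharide, a bacterial activator of Toll-like receptor 4) or the cytokine IL-4, both at 10 ng/mL, and were harvested 30 min, 1 h, 2 h or 4 h later. The lists used here pool these libraries and have no column for any of them. A level in untreated, LPS-treated or IL-4-treated cells, a spread between replicates or a test between groups could therefore not be derived for these genes, and the depth of the libraries is unknown from the lists. The values below describe a catalog of sites found across the groups, and the score of a summit has no error. The score is the number deposited with each summit. Its scale is not stated, it ran from 102 to 2781 with a median of 737, and it took 219 distinct values, so that ties were common.

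Acetylation of H3K27 marks active promoters and enhancers, and trimethylation of the same residue marks genes silenced by Polycomb. Ep300 and Crebbp encode the paralogous acetyltransferases p300 and CBP, which place the acetyl group. Polycomb repressive complex 2 (PRC2) places the methyl groups through its catalytic subunit, EZH1 or EZH2, held together by EED, which binds the trimethylated residue, and SUZ12, the scaffold. Kdm6b encodes JMJD3, a demethylase that removes the methyl groups and is known as a gene induced by LPS in macrophages. Brd2 and Brd3 encode BET proteins, which bind acetylated histone tails through paired bromodomains and help to recruit the transcription machinery.

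Macrophage identity was checked on fixed marker lists. All 10 macrophage markers had a reference peak no further than 1000 bp from a start site, with a median best score of 1594. Among all protein-coding genes the share with such a peak was 56.5%. Of 30 markers of other cell types, 10 had such a peak, with a median best score of 691. These were 3 of 5 B cell genes, 2 of 5 granulocyte genes, 2 of 5 dendritic cell genes, 2 of 5 stromal genes and 1 of 5 genes of T and NK cells, the latter being Lck. None of 5 erythroid genes, Gata1 and Hba-a1 among them, had one. The part of other cells in the peaks of the 9 genes was not tested.

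Sequence near summits is shown first for the start sites and then for sites away from them, because these stretches carry consensus matches that the peaks are described by. Exons were left out, so the Brd3 stretch and the stretch from the Kdm6b intron lie beside their summits, and for Eed the stretch is from the lowest scored of its 3 start site peaks, the one with a match. They are read 5′ to 3′ on the strand of the gene, from GRCm38.p6 (mm10), and hold no exon of a protein-coding gene in GENCODE or RefSeq. Capitals mark the match to a consensus searched within 100 bp of the best summit on both strands. These were CCAATCA or CCAATGA for NFY, GGGGCGGGG for SP/KLF, GAGGAAGT for PU.1/ETS, TGACTCA or its complement for AP-1 and CACGTG for the E-box. NRF1 and NF-kB are given by name. The start site peaks shown are those of Ep300 (chr15:81585136-81585245, plus strand, NFY), Crebbp (chr16:4214027-4214136, minus strand, 3 SP/KLF matches, of which a pair overlaps), Suz12 (chr11:79992992-79993101, plus strand, NFY), Eed (chr7:89981186-89981295, minus strand, NRF1), Brd3 (chr2:27475761-27475825, minus strand, SP/KLF), and Ezh1 (chr11:101226286-101226395, minus strand, no match to any of the 16 consensus sequences searched, hence no capitals).
Ep300 start site: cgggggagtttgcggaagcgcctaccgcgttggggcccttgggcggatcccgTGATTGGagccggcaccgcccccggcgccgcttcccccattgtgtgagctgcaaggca
Crebbp start site: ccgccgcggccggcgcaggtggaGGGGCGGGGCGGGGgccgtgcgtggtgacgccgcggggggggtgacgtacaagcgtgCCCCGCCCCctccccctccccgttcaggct
Suz12 start site: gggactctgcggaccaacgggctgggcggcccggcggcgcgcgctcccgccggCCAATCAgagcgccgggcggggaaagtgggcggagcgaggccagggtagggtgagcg
Eed start site: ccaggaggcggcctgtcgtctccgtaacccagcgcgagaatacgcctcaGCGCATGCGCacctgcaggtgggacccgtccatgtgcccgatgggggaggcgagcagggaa
Brd3 start site: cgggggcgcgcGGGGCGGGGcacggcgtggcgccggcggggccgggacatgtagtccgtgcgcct
Ezh1 start site: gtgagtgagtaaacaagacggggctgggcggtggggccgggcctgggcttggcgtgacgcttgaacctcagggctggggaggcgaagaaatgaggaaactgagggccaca

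The sites further from GENCODE start sites lie in an intron of Kdm6b (chr11:69409630-69409715, minus strand, PU.1/ETS), upstream of Kdm6b (chr11:69418869-69418978, minus strand, E-box), in an intron of Crebbp (chr16:4200137-4200246, minus strand, E-box and AP-1), upstream of Ezh2 (chr6:47621167-47621276, minus strand, AP-1) and upstream of Eed inside the noncoding gene E230029C05Rik (chr7:90019767-90019876, minus strand, 2 PU.1/ETS matches read here as ACTTCCTC). They are shown because they are among the best scored sites of their windows away from a GENCODE start site of any gene.
Kdm6b intron: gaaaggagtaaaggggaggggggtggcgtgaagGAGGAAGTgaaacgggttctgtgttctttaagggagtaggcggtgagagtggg
Kdm6b upstream: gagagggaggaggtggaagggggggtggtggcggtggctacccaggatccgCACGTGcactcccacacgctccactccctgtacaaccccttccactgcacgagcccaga
Crebbp intron: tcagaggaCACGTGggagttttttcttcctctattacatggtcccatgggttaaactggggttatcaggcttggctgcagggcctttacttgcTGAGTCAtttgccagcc
Ezh2 upstream: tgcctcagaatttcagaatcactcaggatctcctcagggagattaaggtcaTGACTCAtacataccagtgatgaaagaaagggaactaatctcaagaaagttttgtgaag
Eed upstream: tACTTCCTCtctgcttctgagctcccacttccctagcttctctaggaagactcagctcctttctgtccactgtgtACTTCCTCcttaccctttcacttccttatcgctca

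Of the 9 genes, 8 had a reference peak no further than 1000 bp from a GENCODE start site. Among all protein-coding genes this was the case for 56.5%. The gene without such a peak was Kdm6b. The best summit at a start site scored 1890 for Brd2, 1877 for Suz12, 1799 for Eed, 1734 for both Ep300 and Ezh2, 1606 for Brd3, 1236 for Ezh1 and 1212 for Crebbp. The summit of Brd2 lay 960 bp from its nearest start site. Within 500 bp Brd2 scored 1864, below Suz12, and at its most upstream start site 1644, below Eed, Ep300 and Ezh2 as well. The 1734 of Ep300 and Ezh2 is a step of the score that 235 summits of the list share, so their order cannot be told. The median of the 8 scores was 1734, against a median of 1456 (quartiles 1071 and 1799) over the 12321 protein-coding genes with a summit there. Brd2, Suz12, Eed, Ep300, Ezh2 and Brd3 lay above that median, and Ezh1 and Crebbp below it. The highest of the 8 stood at the 81.3 percentile of these 12321 genes and the lowest at the 33.9 percentile, so none of them was at either end of the range.

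**Figure D1:**
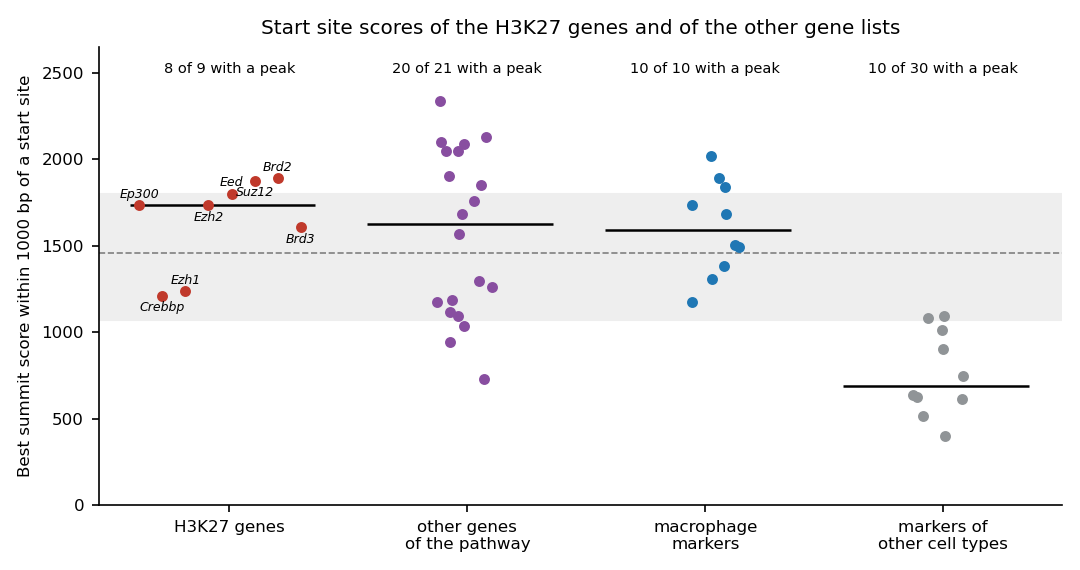
Best summit score (deposited score, scale not stated) within 1000 bp of a GENCODE start site for the 9 genes, 21 other genes of the pathway, 10 macrophage markers and 30 markers of other cell types. Points are genes with such a summit, black lines are medians of these points, the dashed line is the median of all protein-coding genes (1456) and the grey band spans their quartiles (1071 to 1799). Of the 9 genes, Crebbp and Ezh1 lie below the dashed line and Kdm6b has no point.

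The windows differed in how many accessible regions they held. Extended regions numbered 18 for Brd2, 10 for Kdm6b and Eed, 8 for Ezh1 and Brd3, 5 for Ep300, and 4 each for Crebbp, Ezh2 and Suz12. The median over the 9 genes was 8 and over all protein-coding genes 5. Brd2 stood at the 98.5 percentile of protein-coding genes for this number, and the other 8 genes between the 43.8 and the 83.3 percentile. An extended region is a reference peak with its flanks, joined with neighbours, so that a dense stretch counts as a single region. Ezh1 had more extended regions (8) than reference peaks (7), since the flank of a peak outside the window reached into it. Counted per 10 kb of window, which takes out the length of the gene, Brd2 had 1.80 regions and Crebbp 0.219, against a median of 0.400 over protein-coding genes.

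By place, 19 of the 109 reference peaks had their best summit at a start site of the gene itself, 3 in its exons and 18 in its introns. A further 23 peaks, or 21.1% (95% Wilson interval 14.5 to 29.7%, which covers counting error only), lay at a start site of another gene, 24 in introns of other genes and 22 between genes. Together 42 of the 109 peaks lay at a start site of any gene, against 28.4% of all peaks. The windows were placed around start sites, so a larger share there follows from the rule. Scores were highest at the genes' own start sites, where the median was 1345 and 16 of 19 peaks exceeded the median of all summits. The median was 990 at start sites of other genes and 727 for the 67 peaks away from any start site. The whole list showed the same order, with 979 at start sites and 675 away from them. Own start site peaks had a median width of 390 bp, against 268 bp for the 20467 peaks at start sites of any protein-coding gene, and a median GC content of 70.1% within 100 bp of the summit, against 61.2%. Their CpG content relative to that expected from base composition was 0.884, against 0.688. The 23 peaks at start sites of other genes in the windows, noncoding genes included, went the other way, with a GC content of 54.7% and a CpG content of 0.372, against 59.7% and 0.634 for peaks at a start site of any gene type. Away from start sites the GC content was 49.8% in the windows and 48.3% in the whole list. Of the 109 peaks, 7 (6.42%) had repeats over at least 50% of the bases around their best summit, a share near the 6.20% of the whole list.

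**Figure D2:**
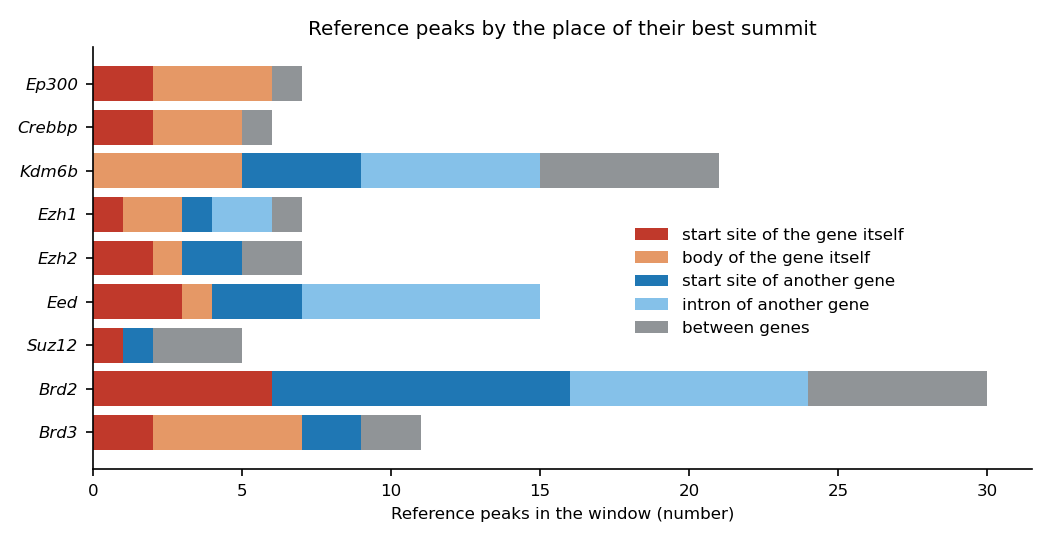
Number of reference peaks in each of the 9 windows (x axis), divided by the place of the best summit (colours). Brd2 and Kdm6b hold 30 and 21 of the 109 peaks, Kdm6b has none at a GENCODE start site of its own, and the peaks of Ep300 and Crebbp lie mostly in the gene itself.

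**Figure D3:**
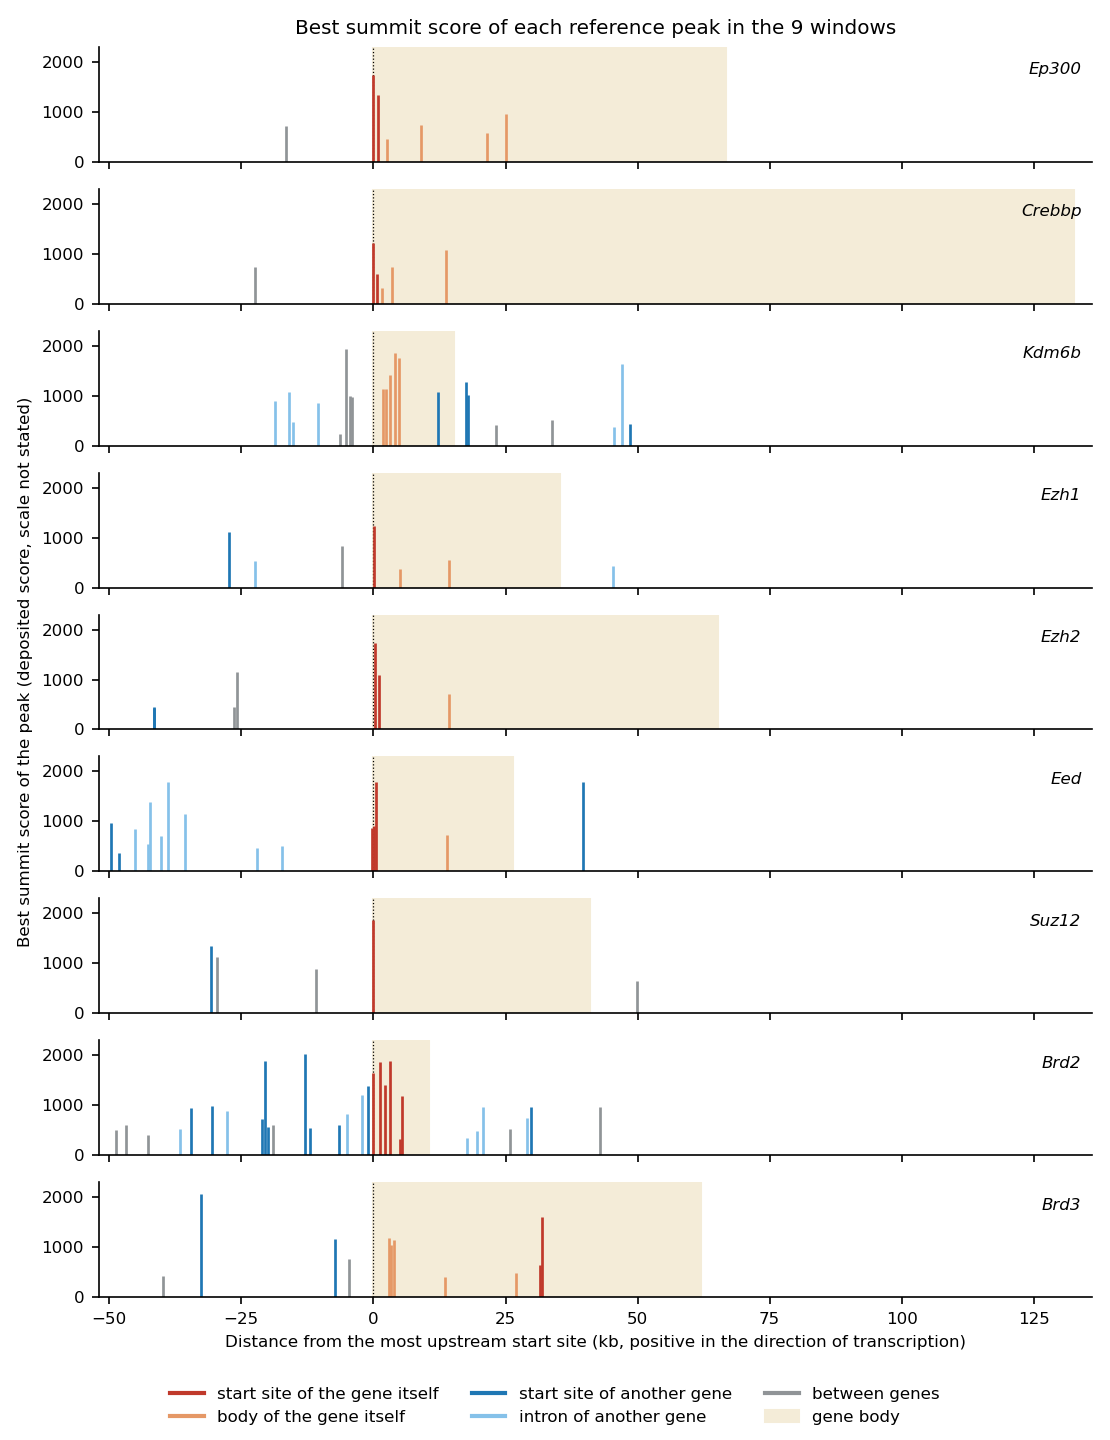
Best summit score of each reference peak (y axis, deposited score) against the distance of that summit from the most upstream start site of the gene (x axis, kb, positive in the direction of transcription), 1 panel per gene. Shading is the gene body. The long bodies of Crebbp, Ezh2 and Suz12 hold few or no peaks beyond their first part, and Brd3 has its own start site peaks inside the gene body as measured from its most upstream start site.

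Ep300 and Crebbp, the acetyltransferases, had similar windows in the number of peaks (7 and 6) and differed in score at the start site. Ep300 had a peak of 573 bp with a score of 1734, 121 bp upstream of its most upstream start site, which carried the NFY match shown above. A second peak of 611 bp, the widest of the window, scored 1345 and carried a STAT6 match. Both peaks also lay within 1000 bp of annotated starts of the noncoding genes Gm23880 or 1110025M09Rik, and with another peak they formed an extended region of 4297 bp. Of the peaks away from start sites the best scored 968 and lay in an exon, 25149 bp into the gene. Crebbp had a peak of 413 bp with a score of 1212 over the SP/KLF matches, 130 bp upstream, and a second of 135 bp with a score of 593 at an alternative start site, both in an extended region of 3457 bp with 3 summits. Its next best site was the intronic peak with E-box and AP-1 matches, 13788 bp into the gene, with a score of 1082. The start site scores of Crebbp were thus below those of Ep300, a difference that has no error and no test. Both windows held no other protein-coding gene with a start site in them.

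The bodies of both genes held long stretches without a reference peak. In Crebbp the longest was 118.793 kb, or 89.5% of the gene, and in Ep300 41.499 kb, or 62.2%. Among 4044 protein-coding genes of at least 40 kb with a start site peak the median was 50.7% (quartiles 33.4 and 74.5%). Crebbp therefore lay above the upper quartile and Ep300 between the quartiles. The same measure was 99.4% for Suz12, 77.7% for Ezh2 and 48.2% for Brd3. The reference peak of the Suz12 start site ended inside the gene, and no other peak touched its body.

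Kdm6b differed from the other 8 genes in where its peaks lay. None of its 2 GENCODE start sites had a summit within 1000 bp, while its window held 21 peaks and 23 summits, 17 of which scored at or above the median of the list. Of the 6 peaks inside the gene, 5 formed an extended region of 4802 bp with 6 summits (chr11:69407886-69412687). In the direction of transcription their best summits scored 1141, 1141, 1406, 1864 and 1747, at 1866, 2373, 3195, 4060 and 4920 bp from the most upstream start site. The first of these carried AP-1 and SP/KLF matches, the third an AP-1 match, the fourth the PU.1/ETS match shown above, and the fifth, which lay in an exon, an NFY match. The third of them was the widest of the window (544 bp). The scores of the fourth and the fifth exceeded the start site score of Brd3 (1606), and those of the first and second lay below that of Crebbp (1212), the lowest among the other 8 genes. The sixth peak scored 1082 and lay at the start site of the antisense gene Kdm6bos. The best scored start site of another gene was that shared by Naa38 and Cyb5d1, with 1284.

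Upstream of Kdm6b, an extended region of 3917 bp (chr11:69416874-69420790) held 4 peaks. Their best summits scored 968, 1002, 1942 and 242, at 3993, 4471, 5282 and 6319 bp from the most upstream GENCODE start site. The peak with the score of 1942 carried the E-box shown above and was the best scored of the window. It was also the best scored of the 67 peaks away from GENCODE start sites in all 9 windows. It was 438 bp wide. Further upstream, 4 peaks in introns of Dnah2 scored 476 to 1082, and on the other side a peak in an intron of Chd3 scored 1632.

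Whether Kdm6b had a start site peak depended on the annotation, a comparison chosen after its values were seen. RefSeq lists 12 transcripts of Kdm6b with 10 start sites, of which 6 had a summit within 1000 bp. These 6 belong to predicted models. The start sites at 69409629 and 69418140 lay 14 and 6 bp from a summit, and the intronic sequence shown above ends directly before the former. The best summit within 1000 bp of the start site at 69418140 was the upstream one with a score of 1942. The start site of the curated model, at 69416194, had its nearest summit 1474 bp away. By start sites of any RefSeq model 9 of 9 genes had a start site peak, and by curated models 8 of 9. By any RefSeq model the best start site score of Kdm6b was 1942, above the 1890 of Brd2. Among RefSeq protein-coding genes the share with a start site peak, by any model, was 55.6%. Which of these start sites BMDMs use cannot be told from accessibility alone.

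**Figure D4:**
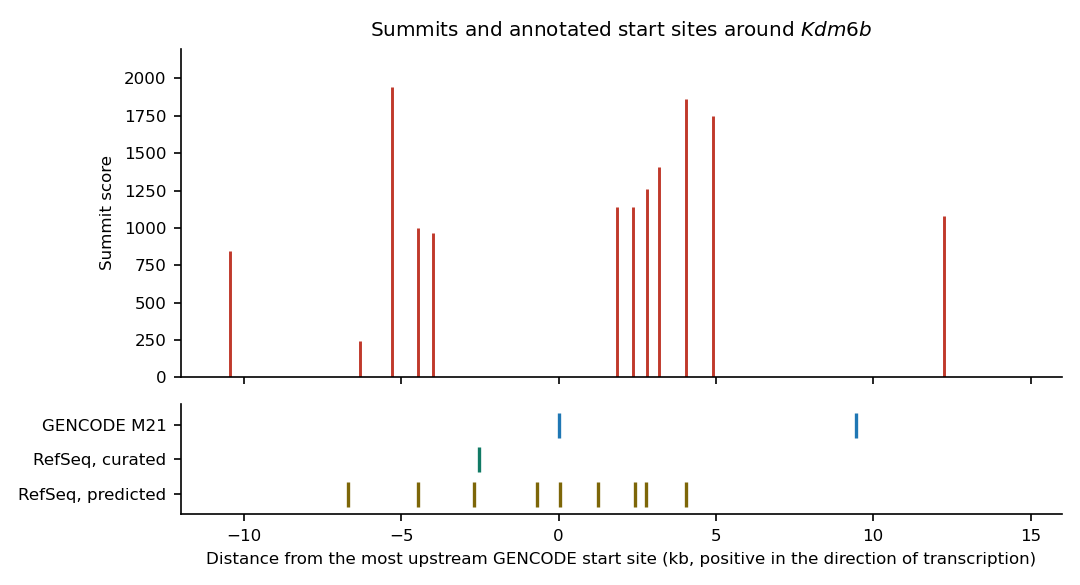
Summits around Kdm6b (upper panel, y axis, deposited score) and annotated start sites (lower panel) against the distance from the most upstream GENCODE start site (x axis, kb, positive in the direction of transcription). The summits form a group inside the gene, from 1866 to 4920 bp, and a group upstream, from 3993 to 6319 bp, and neither GENCODE start site lies within 1000 bp of a summit, whereas 6 RefSeq start sites do.

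Among the PRC2 genes, Ezh2 and Ezh1 encode the alternative catalytic subunits. Ezh2 is linked to dividing cells and Ezh1 is found in resting cells as well. Both had peaks at the start site, with a best score of 1734 for Ezh2 and 1236 for Ezh1. The Ezh2 peak was 498 bp wide and carried NFY and E2F matches. A second Ezh2 peak, 702 bp from a start site, scored 1082 and carried an NF-kB match. Ezh1 had a single start site peak of 265 bp, and its other peaks scored at most 1117, the value at the start site of Vps25, an endosomal sorting gene 27359 bp upstream, where the widest peak of the window (411 bp) lay. Ezh1 thus had the lower and narrower start site peak. Its window held more extended regions (8 and 4), but both windows held 7 reference peaks and 7 summits. Neighbouring Ezh2 peaks were joined into regions, and an Ezh1 region reached in from a peak outside the window.

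Away from start sites, the best scored Ezh2 peak lay 25869 bp upstream between genes, scored 1153 and carried the AP-1 match shown above. It shared an extended region with a peak that scored 448. A pair of peaks at the start of the noncoding gene Gm25283 scored 448 and 421. The only peak in the body of Ezh2 away from its start sites scored 716, and 50.645 kb of the gene held none. In the Ezh1 window the best scored such peak had a score of 823, lay 5915 bp upstream and carried an IRF match.

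Eed and Suz12, the core subunits, had start site scores of 1799 and 1877. Suz12 had the fewest peaks of the 9 windows, 5, although Crebbp and Ezh2 had fewer extended regions per 10 kb (0.219 and 0.347, against 0.400). Its start site peak was 719 bp wide with its summit 105 bp upstream and carried the NFY match shown above. A peak at the start site of Utp6, a gene of ribosome biogenesis, scored 1345. The remaining 3 peaks lay between genes and scored 644, 878 and 1117, and the first of them was 49951 bp from the start site, just inside the window.

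Eed had 3 neighbouring start site peaks, joined in an extended region of 2437 bp, with scores of 1799, 900 and 867, the last of which carried the NRF1 match. The same peaks lay within 1000 bp of a start site of E230029C05Rik, a noncoding gene transcribed in the opposite direction from the same place. A further 8 peaks lay in introns of that gene, between 17232 and 45193 bp upstream of Eed, and scored 467 to 1786. The best of them carried the PU.1/ETS matches shown above, and another, 45193 bp upstream, carried PU.1/ETS, NF-kB and STAT6 matches together. On the other side, a peak at the start site of Hikeshi, a nuclear import gene, scored 1799 as well. The widest peak of the window, of 483 bp with a score of 1394, lay in an intron of E230029C05Rik, 42214 bp upstream of Eed, and carried an NF-kB match. The Eed window had as many extended regions as that of Kdm6b (10) and fewer reference peaks (15 and 21). The tie held at 50 kb alone, as Eed had 3 regions and Kdm6b 7 in windows of 20 kb, and 17 and 14 in windows of 100 kb. The Eed gene body held a single peak away from the start sites, with a score of 727.

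**Figure D5:**
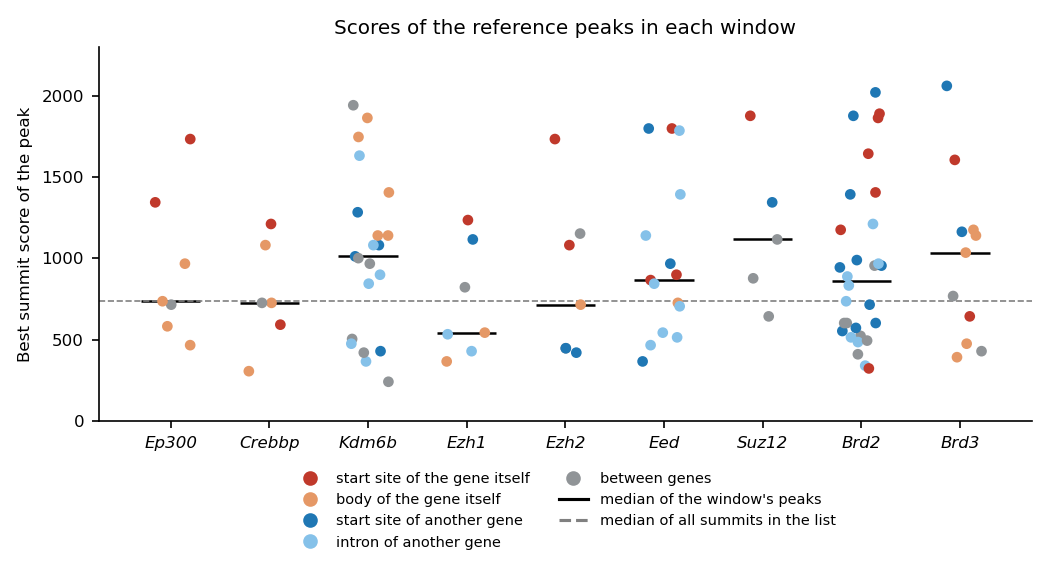
Best summit score (y axis, deposited score, scale not stated) of each of the 109 reference peaks, by window (x axis) and by place (colours). Black lines are medians of the peaks in a window and the dashed line is the median of all summits in the list (737). In 6 of the 9 windows the best scored peak lies at a start site of the gene itself, tied with another gene's start site in the Eed window.

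Brd2 had the most peaks of the 9 windows, 30, with 32 summits. In windows of 20 kb it had 7 extended regions, as many as Kdm6b. Of the 30 peaks 6 were at its own annotated start sites, with scores of 1890, 1864, 1644, 1406, 1176 and 324. Which of these start sites are used was not measured. The widest, of 1031 bp with 3 summits, spanned the most upstream start site and scored 1644. Together with 3 other start site peaks and 2 peaks on the side of H2-DMa it formed an extended region of 7283 bp with 8 summits (chr17:34118396-34125678), the one with the most summits in the 9 windows. The peak with the score of 1890 carried CRE and SP/KLF matches, and the one with 1864 an AP-1 match. The best peak of the window away from any start site scored 1212, lay in an intron of H2-DMa and carried an E-box match.

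Brd2 lies in the class II region of the major histocompatibility complex, and its window held 4 other protein-coding genes with a start site summit. These were H2-DMa, H2-DMb2, H2-DMb1 and H2-Oa, which encode chains of the molecules that load and edit peptides on class II proteins. Their best start site scores were 2021, 1877, 990 and 956. A start site of H2-DMa lay 188 bp from a Brd2 start site, and both genes shared the peak there, which scored 1644. The Brd2 start site peaks with scores of 1890 and 1406 also lay within 1000 bp of a start site of H2-DMa. For the former, the H2-DMa start site was the closer. Those with 1406 and 1864 lay within 1000 bp of a start site of the antisense gene CR974462.3. The 2021 of H2-DMa belonged to a peak at another of its start sites, 12891 bp upstream of Brd2. In the 8 windows of genes with a start site score, no protein-coding neighbour except H2-DMa scored above the gene of the window, and Hikeshi scored the same as Eed. This holds at 1000 bp, since the 1877 of H2-DMb2 exceeds the 1864 that Brd2 scored within 500 bp. Peaks at start sites of other genes made up 10 of the 30. The number of regions around Brd2 thus includes the elements of its neighbours, and which gene a shared peak serves cannot be told from position. Without Brd2 the other 8 windows held 53 extended regions.

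Brd3 had 11 peaks and 13 summits. Its peak with the score of 1606, which carried the SP/KLF match shown above, lay at start sites inside the gene body, 31937 bp from the most upstream annotated start site, and the latter had no summit within 1000 bp. Between the 2 places, 3 neighbouring intronic peaks with scores of 1141, 1036 and 1176 formed an extended region of 2471 bp (chr2:27502997-27505467) close to the upstream start site, at 3805, 3324 and 2993 bp from it. They carried no match to any of the consensus sequences. The start site of Wdr5, a subunit of histone methyltransferase complexes, scored 1164. The highest score of the window, 2061, belonged to the widest peak of the window (759 bp), at starts of the noncoding genes Gm13421 and Gm25541, 32652 bp upstream. Compared with Brd2, Brd3 had a lower start site score and fewer regions (8 and 18, or 6 and 7 in windows of 20 kb), with 1 other protein-coding gene with a start site summit in the window against 4.

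The consensus matches were counted over the 109 peaks and set beside the whole list as a description. AP-1 was found at 13 peaks (11.9%, Wilson interval 7.10 to 19.3%) and at 16.2% of all peaks. PU.1/ETS was found at 5 (4.59%, interval 1.98 to 10.3%) and at 9.22% of all peaks. These 5 lay in the windows of Kdm6b, Eed and Brd2, and all were away from start sites. In the whole list AP-1 and PU.1/ETS matches were at 7.86% and 5.24% of start site peaks, against 19.5% and 10.8% of the others. The windows hold a larger share of start site peaks than the list. Away from start sites the shares in the windows were 14.9% and 7.46%. NFY matches were at 9 peaks (8.26% against 6.01%), of which 6 were at start sites of the genes or their neighbours. For the factors that LPS and IL-4 activate, NF-kB matches were at 6 peaks (5.50% against 5.57%), IRF matches at 7 (6.42% against 3.66%) and STAT6 matches at 8 (7.34% against 6.87%). For each of these 6 motifs the share of the whole list lay inside the Wilson interval of the 109 peaks, so no difference was detectable with this number of peaks at this window length. It lay outside for NFY at 50 bp to each side (7.34% against 3.59%) and at 200 bp (16.5% against 9.55%), and for PU.1/ETS at 50 bp (1.83% against 6.55%). The order turned for IRF at 50 bp (0.917% against 2.01%), for NF-kB at 50 bp (4.59% against 3.41%) and 200 bp (8.26% against 8.05%), and away from start sites for NF-kB (5.97% against 5.75%), STAT6 (4.48% against 7.82%) and NFY (4.48% against 4.69%).

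Of the other motifs, SP/KLF (GGGGCGGGG) was at 5 peaks (4.59% against 4.31% of the whole list) and the E-box at 5 (4.59% against 4.76%). For the E-box the order turned at 50 bp (3.67% against 2.61%) and over whole peaks (6.42% against 5.81%). It also turned away from start sites (7.46% against 3.77%). ETS as bound by GABP (CCGGAAGT, which shares its end with the PU.1/ETS consensus) was at 2 (1.83% against 1.54%). CRE (TGACGTCA), RUNX (TGTGGTTT), NRF1 and E2F (TTTCCCGC or TTTGGCGC) were each at 1 peak (0.917%), against 0.927%, 3.38%, 0.294% and 0.636% of the whole list. CTCF matches were at 2 peaks (1.83% against 3.09%), both in the Kdm6b window, 23114 bp downstream and 18577 bp upstream of its most upstream GENCODE start site. No match to C/EBP (TTGCGCAA or TTGCATCA) or YY1 (AAGATGGC) was found, against 1.18% and 1.498% of the whole list, which says only that these letters were not in the windows searched. At the genes' own start sites NFY matches were found for Ep300, Ezh2 and Suz12 and SP/KLF matches for Crebbp, Brd2 and Brd3. Over the 42 peaks at a start site of any gene in the windows, NFY was at 14.3% and SP/KLF at 7.14%, against 9.34% and 12.6% of all start site peaks.

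Other genes of the same pathway were read from a fixed list of 21. Of these 20 had a start site peak, with a median best score of 1625.5. Among all protein-coding genes 56.5% had a start site peak, and the median best score was 1456. Kdm6a, the paralog of Kdm6b on chromosome X, scored 1903, and its Y-linked relative Uty scored 945. The highest scores among PRC2 partners were 2127 for the histone-binding subunit Rbbp4, 2100 for Jarid2, which guides the complex to chromatin, and 2087 for Phf19, an accessory subunit. Other partners scored lower, down to 1296 for Phf1 and 1260 for Lcor, both below the median of protein-coding genes. Among other lysine acetyltransferases, Kat6b scored 2336 and Kat2a 727, the ends of the list. Ezhip, an inhibitor of PRC2 known from germ cells and tumors and annotated as AU022751, had neither a start site peak nor an extended region in its window.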

How the data were processed

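The 18 ATAC-seq libraries were grouped by the labels (9 groups of 2). Per the study's methods, the authors trimmed single-end reads (BBDuk, Trimmomatic 0.39), mapped them to mm10 with ShortStack, removed mitochondrial and low quality reads (SAMtools 1.9), and called peaks with MACS2 2.2.6 with duplicates kept, no local background and a fixed extension. Peaks under a strict q-value that overlapped between replicates were kept. Kept duplicates can add to a score, and no shift of reads to the transposase cut is named. The deposited score of each summit was used as given by the authors; its scale is not stated. The 3 deposited lists pool all libraries, and 0 columns belonged to other samples. For this reason the comparison of stimuli and times planned from the labels was not made, no replicate could be left out, and no test was run.

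Entries were placed on GENCODE M21 and RefSeq (GRCm38.p6), whose chromosomes held all entries on 21 of 21 chromosomes. A peak was at a start site if it came within 1000 bp of one. The place of a peak was that of its best scored summit. Overlap required 1 bp. Motifs were searched 100 bp to each side of that summit. Percentiles of region numbers are among 21938 protein-coding genes, and those of start site scores among the 12321 with a summit there. The counting was tested on simulated lists. Python 3.11.15, numpy 2.4.6, pandas 2.3.3 and statsmodels 0.14.6 were used. Alternatives were other windows, start site distances, annotations, score minimums and motif windows.

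The genes and the gene and motif lists were chosen with earlier results of these data known. For each gene the text names its best scored peak at and away from start sites, its widest peak, the extended region with the most summits where that had 3 or more, the pathway list, and the neighbour with the best start site score; other peaks and sites were chosen after their values were seen. The totals of the pathway list include 1 gene whose own value is not reported here.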

Additional observations from a re-analysis of the deposited data

How the results depend on the processing

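No paired analysis was possible because the lists have no column per library, and for the same reason no replicate could be left out. Counts were taken as moved beyond 1.5 times, and shares when they left the Wilson interval. The number of genes with a start site peak (7 to 9 of 9, the extremes by the most upstream start site alone and by 2500 bp or any RefSeq model), the median start site score (1734 throughout), the start site peaks of the pathway list (18 to 20) and the median percentile of the region number (64.2 to 76.0) did not move. Window size sets the counts by construction. In windows of 20 kb, 39 extended regions, 67 peaks and 71 summits remained, in windows of 100 kb 141, 211 and 219, in gene bodies alone 23, 40 and 39, and at or above the median score 46, 64 and 70. The share of peaks at start sites of other genes was 30.3% within 2500 bp, 13.4% in windows of 20 kb and 13.8% for protein-coding neighbours alone. Of the other results, which are single genes' scores and region numbers, 13 of 42 moved, all region numbers under another window.

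Motif counts were small and followed the length searched. The share of the whole list left the Wilson interval at 5 motif settings, for NFY (50 and 200 bp), PU.1/ETS (50 bp) and NRF1 (200 bp and whole peaks, 1.83% against 0.403% and 0.418%). With 50 bp to each side of the summit the count was 2 for PU.1/ETS, 7 for AP-1, 0 for CRE and E2F, 1 for IRF and 5 for STAT6. With 200 bp it was 8 for PU.1/ETS and SP/KLF, 13 for STAT6, 4 for RUNX and YY1, 18 for NFY, 2 for NRF1 and 3 for E2F. Over whole peaks it was 2 for RUNX, NRF1, YY1 and E2F, 9 for SP/KLF and 4 for CTCF. In the peaks away from start sites it was 0 for CRE, RUNX, ETS (GABP), NRF1 and E2F, 3 for STAT6 and NFY, and 2 for SP/KLF. C/EBP was at 0 under each of these settings. The RefSeq start sites and the counts without Brd2 (53 regions, 79 peaks and 83 summits) were chosen after the data were seen.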
